A study of Mus musculus with 36 samples.

Results

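The 9 genes described here were listed as fatty acid oxidation enzymes, and all but Cpt1c encode enzymes of the mitochondrial pathway. They were chosen by name, by a rule that uses no measured value but with earlier results of these data known: Cpt1a, Cpt1c and Cpt2 (carnitine palmitoyltransferases), Acadvl, Acadl and Acadm (acyl-CoA dehydrogenases), Hadha and Hadhb (the subunits of the mitochondrial trifunctional protein) and Etfdh (the dehydrogenase that passes electrons from the electron transfer flavoprotein to ubiquinone). They are 9 of the 56980 gene rows of a raw count table, and all 9 were among the 25601 genes that passed the filter on low counts. PolyA-selected RNA was sequenced from 36 samples of mouse brain tissue. The labels state an age of 37 to 45 days and give each sample as an Ndufs4 knockout (genotype ndufs4-ko, here KO) or WT. Ndufs4 encodes an accessory subunit of respiratory complex I, and its loss in mice models Leigh syndrome. CP2, a small molecule that inhibits complex I, or Vehicle was given by gavage on 3 consecutive days. Hippocampus and cortex are named in the design text, whereas the tissue label of every sample is brain. The promoter, the allele and the cells in which Ndufs4 was deleted are not given in the sources used here.

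Each sample title also carries the letter F or M, and genotype, treatment and letter define 8 groups. With the letter F there were 5 samples each of KO vehicle, KO CP2, WT vehicle and WT CP2. With the letter M there were 3 of KO vehicle, 3 of WT vehicle, 5 of KO CP2 and 5 of WT CP2. Samples are named by the L number in their title. The labels do not say outright that each sample is a separate animal, so the p-values measure the spread between these samples.

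Fatty acids reach the mitochondrial matrix as carnitine esters, made by a CPT1 enzyme on the outer membrane and turned back into acyl-CoA by CPT2 on the inner membrane. The acyl-CoA dehydrogenases then take the first step of each round of beta-oxidation and hand their electrons through the electron transfer flavoprotein and ETFDH to ubiquinone, the pool that complex I also feeds. The trifunctional protein carries out the following steps on long chains and makes NADH, the substrate of complex I. In the brain this pathway is known mainly from astrocytes, while CPT1C is a neuronal form that sits in the endoplasmic reticulum and has little transferase activity.

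Hadha (ENSMUSG00000025745) and Hadhb (ENSMUSG00000059447) lie head to head, and their promoter is shown because both subunits were lower in KO brain with vehicle. The promoters of Acadl (ENSMUSG00000026003) and Acadm (ENSMUSG00000062908), the genes whose level was called higher with CP2 in KO along with Hadhb, are shown for comparison. That of Cpt1c (ENSMUSG00000007783) is shown too. With group means subtracted, its level was negatively correlated with each of the others, from -0.09 with Etfdh to -0.52 with Acadl. In the RefSeq table (build GRCm38.p6) the starts of Hadha and Hadhb are 273 bp apart on opposite strands, so that most of their 300-base windows is shared. Each sequence below is the 250 bases before the gene's start, 5′ to 3′ on the gene's strand, with the searched motifs in capitals: the Hadhb sequence is chr5:30155003-30155252 (+), Acadl chr1:66863310-66863559 (-), Acadm chr3:153944644-153944893 (-) and Cpt1c chr7:44974852-44975101 (-).
Hadhb: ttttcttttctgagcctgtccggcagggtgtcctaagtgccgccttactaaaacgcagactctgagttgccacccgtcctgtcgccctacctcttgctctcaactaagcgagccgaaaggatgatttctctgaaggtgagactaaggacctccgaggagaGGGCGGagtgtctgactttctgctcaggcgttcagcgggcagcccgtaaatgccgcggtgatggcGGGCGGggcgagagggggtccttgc
Acadl: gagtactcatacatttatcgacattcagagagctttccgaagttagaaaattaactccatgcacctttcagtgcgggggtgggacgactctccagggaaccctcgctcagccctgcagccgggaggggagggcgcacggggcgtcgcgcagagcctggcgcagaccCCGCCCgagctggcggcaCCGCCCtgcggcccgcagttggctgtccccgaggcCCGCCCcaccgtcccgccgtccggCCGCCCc
Acadm: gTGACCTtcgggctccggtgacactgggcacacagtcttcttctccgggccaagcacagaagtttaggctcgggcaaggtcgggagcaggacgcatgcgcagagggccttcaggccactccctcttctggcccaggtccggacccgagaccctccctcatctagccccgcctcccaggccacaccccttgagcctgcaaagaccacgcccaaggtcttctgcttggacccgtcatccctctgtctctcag
Cpt1c: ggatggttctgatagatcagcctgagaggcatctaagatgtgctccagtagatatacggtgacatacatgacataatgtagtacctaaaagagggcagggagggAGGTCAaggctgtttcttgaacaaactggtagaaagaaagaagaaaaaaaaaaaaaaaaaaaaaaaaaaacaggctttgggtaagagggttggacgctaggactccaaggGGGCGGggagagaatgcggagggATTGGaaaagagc

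The GC box, GGGCGG, was found on either strand in these windows of 6 of the 9 genes, and of 32.7% of all 32851 promoters searched over the same length. The GC box 188 bases before the Hadha start and that 90 bases before the Hadhb start are the same stretch, read on opposite strands. These 2 of the 6 genes are therefore not separate finds. Acadl holds 4 GC boxes between 84 and 7 bases before its start, Hadhb 2, and Acadm none. The letters CCAAT were found in 3 of the 9 genes (33.8% of all promoters), Cpt1a, Cpt1c and Etfdh. AGGTCA, the hexamer bound by many nuclear receptors, was found in Cpt1a, Cpt1c, Acadm and Acadvl, 4 of 9, against 14% of all promoters. The NRF1 palindrome, GCGCA, any base and GCGC, was found in Etfdh alone among the 9, as GCGCATGCGC (3.74% of all). Neither the DR1 repeat bound by PPAR and RXR pairs, AGGTCA followed by any base and AGGTCA again (0.0335% of all), nor TNAAGGTCA (1.14%), the extended site of the ERR receptors, nor TGATGNAA (3.45%), the core of sites bound by ATF4 with a CEBP partner, was in the window of any of the 9. The longer nuclear receptor motifs contain AGGTCA. These matches describe letters in a window and are not evidence of binding.

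All 9 genes were well counted, from 309 reads for Cpt2 in its lowest sample upward. Levels between genes were compared as CPM (reads per 1e+06 counted in genes, on TMM-scaled library sizes) per kb of exon, with exon lengths from GENCODE M21. Over the 36 samples the median was highest for Acadl, the long-chain acyl-CoA dehydrogenase, at 18.2 CPM per kb, followed by Cpt1c at 14.4. Hadhb (10.1), Acadvl (10.02), Hadha (8.69) and Acadm (8.47) lay close together, and their ranges over samples overlapped. Cpt1a, the CPT1 form of liver and astrocytes, had 4.67 CPM per kb, with Cpt2 at 3.72 and Etfdh at 3.40. The length was the union of all annotated exons of a gene, 8.73 kb for Hadha but 2.005 kb for Acadl. This order of genes therefore depends on the annotation and may not be that of transcript levels. In CPM without length the medians were 80.7 for Cpt1c, 75.9 for Hadha, 66.4 for Hadhb and 36.4 for Acadl. The ranges of Cpt1a (3.63 to 5.58) and Cpt1c (11.9 to 17.7) did not overlap, so the neuronal form was above the other form in every sample. In the M21 annotation 42.9% of the Acadvl exon bases overlap Dvl2 on the opposite strand, and smaller stretches of Cpt1c (6.53%), Etfdh (3.7%) and Hadha (0.859%) overlap other genes on the opposite strand. Strandedness of the counting is not given in the sources used here, so it is not known how reads in these stretches were assigned. The counting set aside 1.79% to 2.17% of a sample's reads as ambiguous between genes. Reads of the Acadvl overlap may be among them, which would lower its level per kb. The level of Acadvl is uncertain for that reason.

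Gene counts per sample ran from 4.61e+07 to 8.86e+07, and reads outside annotated genes made up 5.09% to 13.2% of a sample. Ndufs4 RNA was lower in every KO sample than in every WT sample in each of the 4 comparisons within letter and treatment, and averaged over F and M with vehicle its log2 fold change was -0.65 (SE 0.070, adjusted p = 3.75e-07 in edgeR's quasi-likelihood test). With CP2 the log2 fold change was -0.56 (SE 0.085, adjusted p = 0.000492) in F and -0.34 (SE 0.085, adjusted p = 0.00611) in M. Within KO M, Ndufs4 was higher with CP2 than with vehicle (0.34, SE 0.099, adjusted p = 0.0368), a comparison in which 5.1% of all genes were called. Xist and Ddx3y split the samples by letter, except that the KO CP2 M sample L291 had both. Markers of astrocytes, neurons, oligodendrocytes, microglia and endothelium were all detected, as were markers of hippocampus, cortex, striatum and choroid plexus, and all 60 listed markers passed the filter. In bulk tissue, fewer cells of a type and less RNA per cell cannot be told apart.

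**Figure D1:**
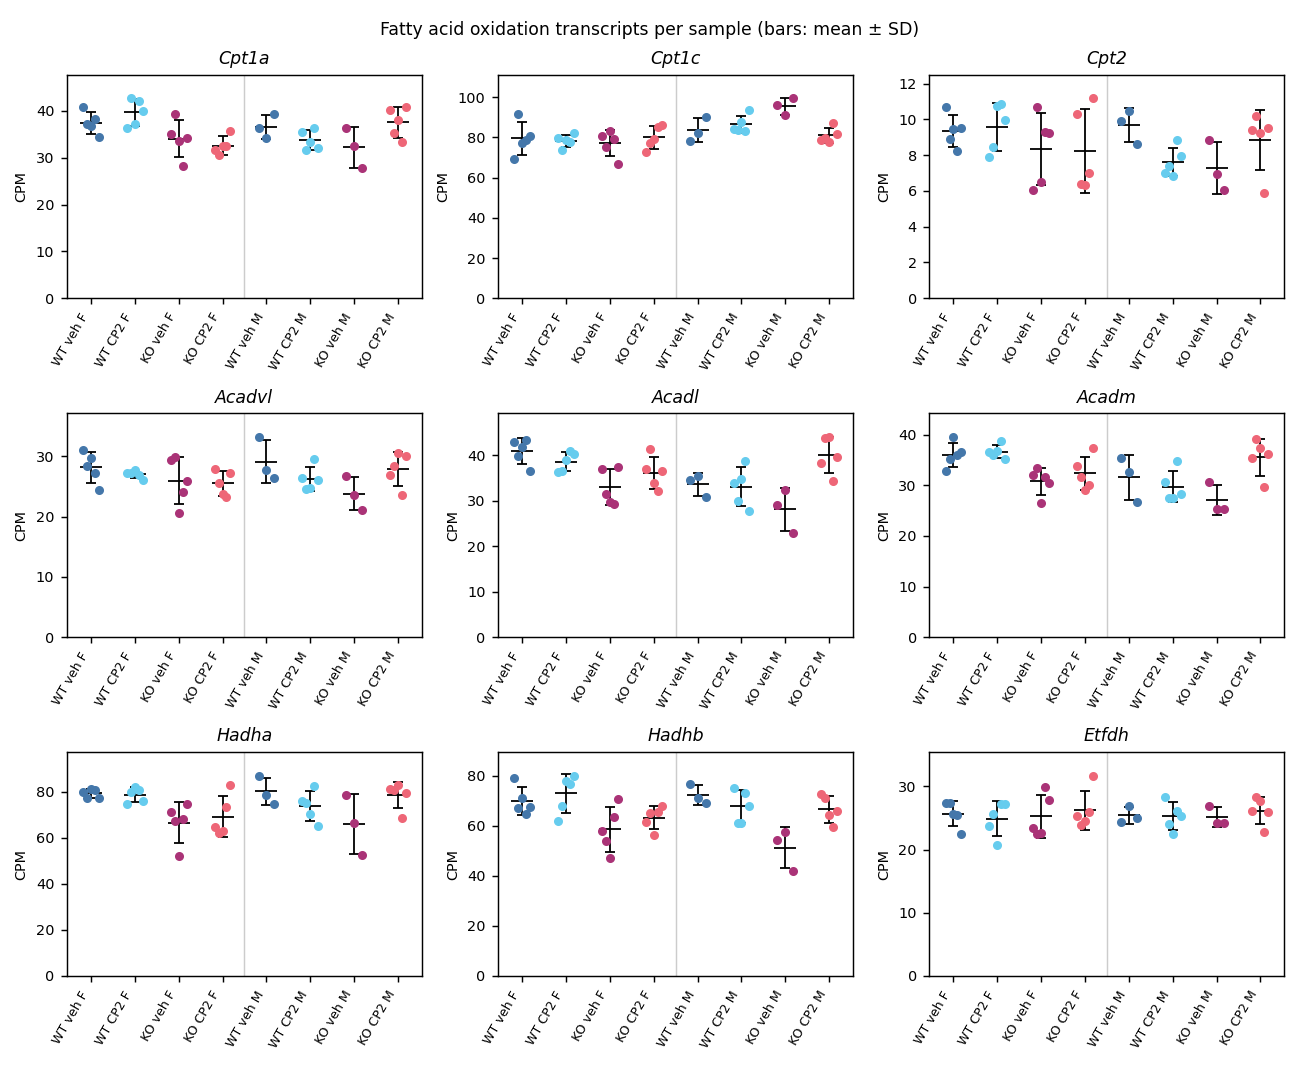
Level of each of the 9 genes in every sample (CPM, vertical axis from 0), by group of genotype, treatment and title letter. Points are samples and bars are the group mean ± SD. Hadhb lies lowest in KO vehicle M, where its 3 samples hold 42.0 to 57.4 CPM, and Cpt1c lies highest there.

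With vehicle, 4 of the 9 genes were lower in KO than in WT averaged over F and M, and none was higher: Hadhb, Acadl, Hadha and Acadm. In the same comparison 6.67% of all tested genes were called at an adjusted p under 0.05, and 3.8% were called lower. The median log2 fold change was -0.22 over the 9 genes and 0.02 over all tested genes. In all, 8 of the 9 estimates were below 0, the exception being Cpt1c.

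Hadhb encodes the beta subunit of the trifunctional protein, the thiolase that releases acetyl-CoA. In WT vehicle M it stood at 76.7, 71.2 and 69.2 CPM and in KO vehicle M at 54.4, 57.4 and 42.0 CPM. In WT vehicle F the 5 samples had 78.9, 67.0, 70.9, 64.7 and 67.6 CPM, and in KO vehicle F 57.8, 53.8, 47.2, 63.5 and 70.6 CPM. The M groups did not overlap, as for 10.3% of all genes in the lower direction, whereas KO F sample L283 lay among the WT values. Averaged over the letters, Hadhb was lower by a log2 fold change of -0.37 (SE 0.074, adjusted p = 0.00147), and this call held in 16 of 16 fits that each left out a sample of the 4 groups. Within M it was -0.50 (SE 0.12, adjusted p = 0.037), where 0.516% of all genes were called and 0.289% called lower, and within F -0.25 (SE 0.090, adjusted p = 0.0916). The M call was lost without KO sample L322 (-0.38, adjusted p = 0.316), WT sample L285 (-0.45, adjusted p = 0.249) or WT sample L300 (-0.50, adjusted p = 0.114).

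Hadha encodes the alpha subunit, with the hydratase and hydroxyacyl-CoA dehydrogenase activities. In F with vehicle the WT samples had 80.0, 77.1, 81.1, 80.5 and 77.2 CPM, and the KO samples 71.1, 67.0, 51.8, 67.9 and 74.7 CPM. Every KO F sample was below every WT F sample, a separation in the lower direction found for 2.87% of all genes. In M the WT samples had 86.6, 78.7 and 74.8 CPM and the KO samples 78.6, 66.3 and 52.6 CPM, and these groups overlapped. The average log2 fold change was -0.27 (SE 0.072, adjusted p = 0.019). It was not called without KO vehicle M sample L322 (-0.20, adjusted p = 0.125) or WT vehicle M sample L285 (-0.24, adjusted p = 0.0777). Hadhb per Hadha, as a ratio of CPM, was 0.786 ± 0.087 (SD, n = 3) in KO vehicle M, and group means elsewhere ran from 0.849 to 0.927.

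Acadl encodes the long-chain acyl-CoA dehydrogenase. In F with vehicle its WT samples had 43.0, 39.9, 41.8, 43.3 and 36.4 CPM and its KO samples 37.0, 31.5, 29.7, 29.2 and 37.4 CPM. In M the WT values were 34.5, 35.5 and 30.8 CPM and the KO values 29.0, 32.3 and 22.8 CPM. The KO samples lay mostly below WT with some overlap in both letters. The average log2 fold change was -0.29 (SE 0.076, adjusted p = 0.0176) and that within F -0.31 (SE 0.093, adjusted p = 0.0438). Acadl was the only member called within F, where 4.96% of all genes were called and 2.94% called lower. The average was not called without KO vehicle M sample L322 (-0.22, adjusted p = 0.112), WT vehicle M sample L285 (-0.28, adjusted p = 0.0502) or WT vehicle M sample L300 (-0.26, adjusted p = 0.0654). The F call was lost in 7 of 10 fits lacking a sample, with KO L279, L281 or L282 or WT L252, L277, L278 or L295 removed (log2 fold change -0.32 to -0.26). Without KO F sample L283, Hadha (-0.29, adjusted p = 0.0429) and Hadhb (-0.32, adjusted p = 0.0219) were called in F too. With the mean log2 CPM of the hippocampal markers added to the model, Acadl was not called in F.

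Acadm encodes the medium-chain acyl-CoA dehydrogenase, and its average was close to the threshold. The F samples had 32.8, 35.2, 39.5, 36 and 36.6 CPM in WT and 32.0, 33.5, 26.5, 31.7 and 30.5 CPM in KO with vehicle. In M they had 35.4, 32.6 and 26.8 CPM in WT and 30.6, 25.3 and 25.4 CPM in KO. Both letters overlapped in their extremes. The log2 fold change was -0.22 (SE 0.071, adjusted p = 0.0471), and it stayed called in 4 of 16 fits lacking a sample, with estimates of -0.23 to -0.18 in the 12 others. Those 12 lacked KO L246, L281, L282, L283, L319 or L322, or WT L277, L278, L295, L296, L285 or L300.

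The remaining members were not called in this comparison. Acadvl, the very-long-chain acyl-CoA dehydrogenase, had a log2 fold change of -0.20 (95% interval -0.35 to -0.05, adjusted p = 0.0906). For Cpt1a, the CPT1 form whose activity malonyl-CoA restrains, it was -0.16 (-0.29 to -0.03, adjusted p = 0.13). For Cpt2, the least counted member, it was -0.29 with a wide interval of -0.56 to -0.02 (adjusted p = 0.2). Etfdh, which takes electrons from all the acyl-CoA dehydrogenases, stood at -0.02 (-0.17 to 0.13). Cpt1c stood at 0.07 (-0.04 to 0.18). In M with vehicle Cpt1c had 96.0, 91.0 and 99.4 CPM in KO and 78.4, 82.1 and 90.3 CPM in WT, which did not overlap, but 10.5% of all genes were separated in the higher direction in that small comparison and its adjusted p was 0.332. Differences between the letters were not called for any of the 9 genes by edgeR (1 at an unadjusted p under 0.05, Cpt1c; 0 called by DESeq2), where 0.102% of all genes were called.

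Other measures moved with genotype in the vehicle groups. Reads outside annotated genes made up 6.19% to 11.7% of KO vehicle F samples and 5.09% to 7.04% of WT vehicle F samples, and 11.3% to 13.0% against 9.48% to 11.6% in M. With this share added to the model, 0 of the 9 were called, and Hadhb had a log2 fold change of -0.24 (adjusted p = 0.0945), Acadl -0.22 (adjusted p = 0.237), Hadha -0.15 (adjusted p = 0.37) and Acadm -0.14 (adjusted p = 0.453). Of the 9 astrocyte markers 1 was called lower and 0 higher, and their summed level was 4619 to 6121 CPM in KO vehicle F against 5280 to 6360 in WT vehicle F, and 4738 to 6629 in KO vehicle M against 5132 to 5474 in WT vehicle M. With the mean log2 CPM of the astrocyte markers as a covariate the same 4 genes were called, Hadhb at -0.37 (adjusted p = 4.75e-05). Red cell markers were lower too, 4 of 5 called, with a summed 74.8 to 129 CPM in KO vehicle F, 85.1 to 387 in WT vehicle F, 38.6 to 87.3 in KO vehicle M and 115 to 647 in WT vehicle M. In vehicle M, where Hadhb was called, the summed levels of 3 more lists did not overlap between KO and WT: oligodendrocyte markers at 7828 to 9221 against 9701 to 10309 CPM, hippocampal markers at 316.9 to 391 against 232 to 259.1 CPM and endothelial markers at 178 to 199 against 159 to 174 CPM, with no single marker of these lists called in M. The hippocampal difference was not the same in F. There the mean log2 CPM of the hippocampal markers was lower in KO, at 4.41 to 4.86 against 4.89 to 5.38 in WT with vehicle, without overlap. Their summed levels overlapped in F. With this mean as a covariate 0 members were called within vehicle F. Striatal markers summed to 541.5 CPM in KO vehicle M sample L322, against 159.6 and 247.7 CPM in the others of its group. In KO vehicle F they summed to 654.7 CPM in sample L281, against 178.2 to 411.5 CPM in the others. L322 and L281 were the lowest samples of their groups for both Hadhb and Hadha. Beyond the covariates given, the part of these cell types, of striatal tissue and of red cell RNA in the result was not tested.

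With CP2 in both genotypes, 0 of the 9 were called between KO and WT averaged over F and M, where 11.6% of all genes were called. None had an unadjusted p under 0.05 and DESeq2 also called 0. The estimates ran from -0.11 for Hadhb (95% interval -0.24 to 0.01) to 0.09 for Acadl (-0.04 to 0.22), with a median of 0.00. In a model with the proportion of reads outside genes added, 1 was called, Hadhb, and in a model with the astrocyte markers 2.

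Within the letters 7 of the 9 estimates differed in sign between F and M, the exceptions being Hadhb (-0.20 in F, -0.02 in M) and Etfdh (0.08 and 0.05). In F, where 2% of all genes were called and 1.28% called lower, Cpt1a was lower in KO: the KO CP2 F samples had 31.7, 30.5, 32.5, 32.5 and 35.7 CPM and the WT CP2 F samples 36.4, 42.6, 37.2, 42.1 and 39.9 CPM. These groups did not overlap, as for 1.77% of all genes in the lower direction, and the log2 fold change was -0.28 (SE 0.080, adjusted p = 0.0496). In M the order was the other way with overlap, at 40.2, 35.2, 38.0, 33.3 and 40.8 CPM in KO CP2 M and 35.6, 31.7, 33.4, 36.4 and 32.0 CPM in WT CP2 M, and the log2 fold change of 0.15 (-0.01 to 0.31) was not called. The F call for Cpt1a was lost without any of KO L201, L216, L227 or L233 or WT L240, L257, L272 or L311 (log2 fold change -0.31 to -0.26).

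In M, where 9.99% of all genes were called and 4.75% called higher, Acadm and Acadl were higher in KO than in WT with CP2. Acadm had 35.4, 39.2, 37.4, 29.6 and 36.1 CPM in KO CP2 M and 30.6, 27.5, 27.5, 34.8 and 28.3 CPM in WT CP2 M. Acadl had 38.2, 43.8, 43.9, 34.4 and 39.6 CPM in KO and 34.0, 29.9, 34.8, 38.6 and 27.7 CPM in WT. Sample L298 was the lowest of the KO group for both genes and sample L267 the highest of the WT group, and the groups overlapped through these. The log2 fold changes were 0.26 (SE 0.086, adjusted p = 0.0486) and 0.28 (SE 0.093, adjusted p = 0.049). Neither was called without any of KO L266, L291, L292 or L299 or WT L259, L262, L263 or L289 (0.22 to 0.27 for Acadm, 0.22 to 0.30 for Acadl). Summed astrocyte markers were 6152 to 7266 CPM in KO CP2 M and 5043 to 5942 in WT CP2 M, without overlap. Microglial markers did not overlap either, at 318.6 to 408.8 against 252.9 to 309.7 CPM, with 4 of 6 called higher, and their part in the result was not tested. Reads outside genes were 5.18% to 9.06% against 9.05% to 13.2%. With either measure as a covariate neither Acadm nor Acadl was called in this comparison.

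The F minus M difference of this genotype effect was not called for any member by edgeR (4 at an unadjusted p under 0.05), where 0.82% of all genes were called, but 2 were called by DESeq2. It was -0.43 for Cpt1a (SE 0.11, adjusted p = 0.0503) and -0.44 for Acadm (SE 0.12, adjusted p = 0.0683). Without KO CP2 F sample L234, KO CP2 M sample L298 or WT CP2 M sample L267 both passed in edgeR (adjusted p between 0.025 and 0.0323). Without WT CP2 F sample L228, Cpt1a passed (adjusted p = 0.0497).

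In KO mice, 3 of the 9 genes were higher with CP2 than with vehicle averaged over F and M, and none was lower: Acadl, Hadhb and Acadm. Of all tested genes 3.91% were called and 2.08% called higher. The median log2 fold change was 0.13 over the 9 and 0.00 over all genes. This comparison uses the same KO vehicle samples as the genotype comparison with vehicle, so a low value in those samples enters both, with opposite sign. Side by side, Hadhb had -0.37 for KO against WT with vehicle and 0.24 for CP2 against vehicle in KO, Acadl -0.29 and 0.32, Acadm -0.22 and 0.23, Hadha -0.27 and 0.15, and Etfdh -0.02 and 0.06.

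Within M the same 3 genes were called, against 5.1% of all genes called and 2.36% called higher. Acadl rose from 29.0, 32.3 and 22.8 CPM with vehicle to 38.2, 43.8, 43.9, 34.4 and 39.6 CPM with CP2, and every CP2 sample lay above every vehicle sample. Its log2 fold change was 0.51 in M (SE 0.11, adjusted p = 0.00374) and 0.32 averaged over the letters (SE 0.072, adjusted p = 0.00833). Hadhb rose from 54.4, 57.4 and 42.0 CPM to 72.6, 71.0, 64.3, 59.3 and 65.8 CPM, again without overlap, with a log2 fold change of 0.38 in M (SE 0.11, adjusted p = 0.0279). Separation of the M groups in the higher direction was found for 6.63% of all genes. Acadm went from 30.6, 25.3 and 25.4 CPM to 35.4, 39.2, 37.4, 29.6 and 36.1 CPM, and only sample L298 with CP2 lay below the highest vehicle sample. Its log2 fold change was 0.39 in M (SE 0.10, adjusted p = 0.0164).

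Other members in KO M did not pass. Hadha had 0.25 (95% interval 0.05 to 0.46, adjusted p = 0.148), Acadvl 0.23 (0.01 to 0.44), Cpt1a 0.22 (0.03 to 0.41) and Etfdh 0.06 (-0.15 to 0.27). Cpt1c alone among the 9 had a negative estimate in KO M. Its vehicle samples had 96.0, 91.0 and 99.4 CPM and its CP2 samples 78.8, 79.7, 77.8, 87.4 and 81.5 CPM, without overlap, and the log2 fold change was -0.24 (SE 0.075, adjusted p = 0.057). Separation in the lower direction was found for 8.64% of all genes.

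In KO F no member was called (0 at an unadjusted p under 0.05 in edgeR, 0 called by DESeq2), where 0.0859% of all genes were called. Acadl had 37.0, 31.5, 29.7, 29.2 and 37.4 CPM with vehicle and 37.0, 41.3, 33.9, 32.1 and 36.5 CPM with CP2, and the groups overlapped. Its log2 fold change was 0.13 (-0.05 to 0.32), that of Hadhb 0.11 (-0.07 to 0.29) and that of Acadm 0.07 (-0.10 to 0.25). The difference between letters was tested and not called for any of the 9 (4 at an unadjusted p under 0.05, 0 called by DESeq2; 0.691% of all genes called). It was -0.38 for Acadl (SE 0.14, adjusted p = 0.188), so a larger CP2 effect in M was not established.

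Some calls for CP2 in KO were lost when a single sample was left out. Without sample L322, the lowest of them for Acadl and Hadhb, 0 members were called both in M and on average, with Acadl at 0.38 in M (adjusted p = 0.0976) and 0.26 on average (adjusted p = 0.0686). In M, Acadm was also lost without vehicle sample L319 (0.35, adjusted p = 0.104), and Hadhb without CP2 sample L266 (0.34, adjusted p = 0.0749) or L291 (0.35, adjusted p = 0.0586). Hadha passed without vehicle sample L310 (0.40, adjusted p = 0.0319), and Cpt1c passed without CP2 sample L298 (-0.27, adjusted p = 0.0323). On average 1 member, Acadl, was left called without KO CP2 F sample L216 or L234, KO CP2 M sample L266 or L291, or KO vehicle F sample L281. The average call of Acadm was also lost without KO CP2 M sample L292 or L299 or KO vehicle M sample L319, and that of Hadhb without KO CP2 F sample L233 or KO vehicle F sample L279. L266 differed from the other KO CP2 M samples in the gene ENSMUSG00000119584, which took 1.01% of its counts and 4.79% to 5.87% of theirs. L291 had both Xist and Ddx3y. With samples L266 and L291 both left out, Acadl alone stayed called, at 0.49 in M (adjusted p = 0.0314) and 0.31 on average (adjusted p = 0.0292).

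Glial markers and the read distribution moved with CP2 in KO M. Summed astrocyte markers were 6152 to 7266 CPM with CP2 and 4738 to 6629 with vehicle, and 2 of the 9 were called higher. Oligodendrocyte markers summed to 8210 to 15120 against 7828 to 9221 CPM, with 1 of 6 called higher, and microglial markers to 318.6 to 408.8 against 279.3 to 328.8 CPM, with 3 of 6 called higher. Reads outside genes were 5.18% to 9.06% with CP2 and 11.3% to 13.0% with vehicle. With the astrocyte markers as a covariate 0 members were called in M or on average, and Acadl had 0.33 in M (adjusted p = 0.134). Adding the proportion of reads outside genes in their place also left 0 called, with Acadl at 0.38 in M (adjusted p = 0.334). Choroid plexus markers summed to 196 to 2777 CPM in KO CP2 M and 592 to 1106 in KO vehicle M, 0 of 6 called, and their part in the result was not tested.

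In WT mice no member was called for CP2. For the average, for F and for M, edgeR called 0 of the 9, DESeq2 called 0, and 0 had an unadjusted p under 0.05, and 0% of all 25601 genes were called. The averages ran from -0.16 for Cpt2 (95% interval -0.41 to 0.09) to 0.01 for Cpt1c (-0.09 to 0.11). For Acadl the interval was -0.20 to 0.09, for Acadm -0.16 to 0.10 and for Hadhb -0.16 to 0.12. In WT M, Acadl had 34.5, 35.5 and 30.8 CPM with vehicle and 34.0, 29.9, 34.8, 38.6 and 27.7 CPM with CP2. The F minus M difference of the CP2 effect in WT was also called for 0 members (0 at an unadjusted p under 0.05, 0 by DESeq2, 0% of all genes).

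Whether CP2 acted differently in KO and WT was tested as a difference of differences. It was called for 0 of the 9 on average by edgeR (5 at an unadjusted p under 0.05, Acadl, Acadm, Hadhb, Hadha and Acadvl; 1 called by DESeq2), where 0.715% of all genes were called. Acadl came closest at 0.38 (SE 0.10, adjusted p = 0.0602), and it passed without KO sample L233, L298, L246, L283 or L319 or WT sample L267 or L303 (0.39 to 0.43). In M, 8 of the 9 had an unadjusted p under 0.05, all except Etfdh, but edgeR called 0, DESeq2 called 3, and 1.98% of all genes were called. The M values were 0.54 for Acadl (SE 0.15, adjusted p = 0.0523), 0.48 for Acadm (SE 0.14, adjusted p = 0.0619), 0.47 for Hadhb (SE 0.15, adjusted p = 0.0804) and -0.28 for Cpt1c (SE 0.11, adjusted p = 0.16). Between 1 and 3 members passed in M without KO CP2 sample L298, KO vehicle sample L310 or L319, WT CP2 sample L267 or WT vehicle sample L303. In F edgeR called 0 (0 at an unadjusted p under 0.05, 0 called by DESeq2, 0% of all genes called), with Acadl at 0.22 (-0.05 to 0.48).

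**Figure D2:**
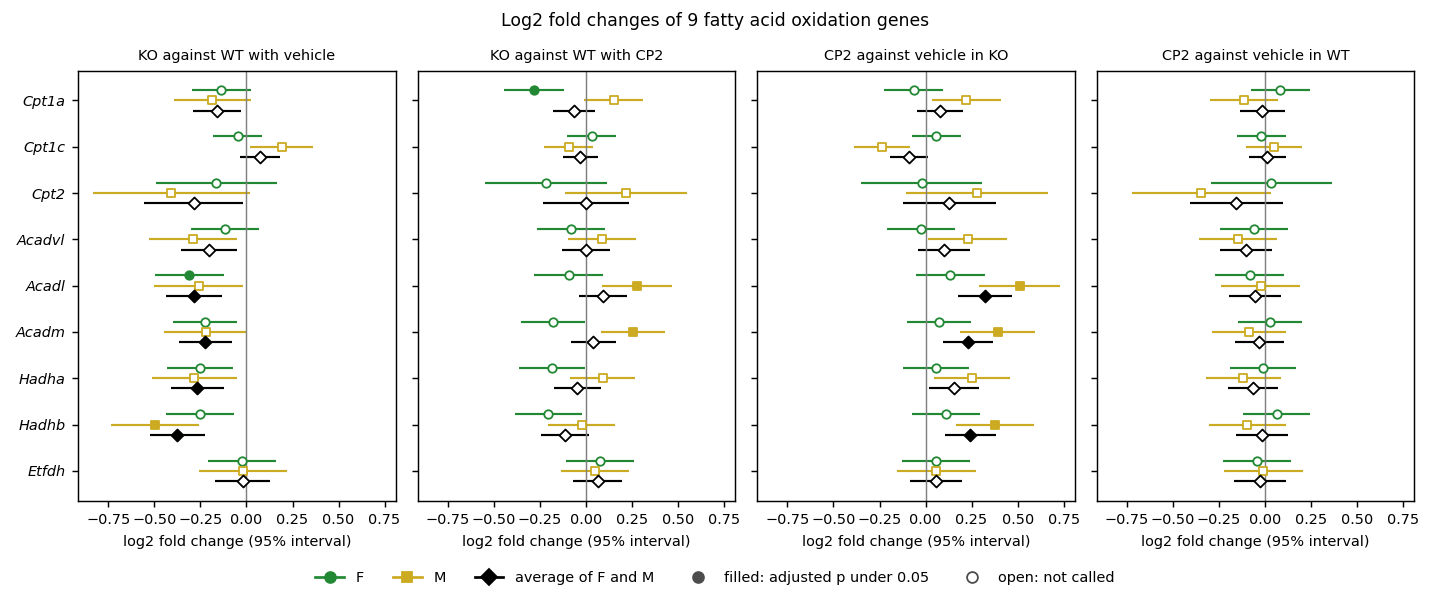
Log2 fold changes of the 9 genes with 95% intervals (horizontal axis) for 4 comparisons, within F (circles), within M (squares) and averaged (diamonds); filled symbols passed an adjusted p of 0.05. Averages run lowest for Hadhb in KO against WT with vehicle (-0.37) and highest for Acadl for CP2 in KO (0.32), and those of Etfdh lie between -0.03 and 0.06.

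Between the letters, averaged over genotype and treatment, 1 of the 9 genes was called, Cpt1c, which was lower in F (log2 fold change -0.13, SE 0.035, adjusted p = 0.0107), where 10.3% of all genes were called and 5.66% called lower in F. The call was lost with the proportion of reads outside genes in the model (-0.09, adjusted p = 0.505), a proportion with group means of 5.99% to 9.24% in F and 7.33% to 12.1% in M. The libraries of the letters also differed in ENSMUSG00000119584, at 0.856% to 3.20% of counts in F samples and 1.01% to 6.01% in M samples. Group means of Cpt1c were 77.0 to 80.1 CPM in F and 81.0 to 95.5 CPM in M. Acadl (0.15, adjusted p = 0.0508) and Acadm (0.14, adjusted p = 0.0555) were higher in F just short of the threshold, and Acadl or Acadm or both passed in 23 of 36 fits lacking a sample. The ratio of Cpt1a to Cpt1c in CPM was lowest in KO vehicle M, 0.338 ± 0.053 (SD, n = 3), and highest in WT CP2 F, 0.507 ± 0.051 (SD, n = 5).

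The members varied together from sample to sample. After the mean of each group was subtracted from log2 CPM, the highest correlations over the 36 samples were Acadm with Acadvl (Pearson r 0.73), Acadm with Hadha (0.69) and Hadha with Hadhb (0.68). Cpt1c was negatively correlated with each of the other 8, from -0.09 with Etfdh to -0.52 with Acadl. These correlations are descriptions of libraries that share depth, dissection and cell makeup. Counted per sample, the number of members below the mean of WT vehicle of the same letter had a median of 7 of 9 in KO vehicle F, 8 in KO vehicle M, 8 in KO CP2 F, 4 in KO CP2 M, 7 in WT CP2 M and 5 in WT CP2 F and in WT vehicle of either letter. A high count was thus not limited to KO groups.

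Hadha followed the astrocyte markers most closely. With group means subtracted, its correlation with the mean log2 CPM of the 9 astrocyte markers was r = 0.88 (Spearman rho 0.80) over 36 samples, 0.83 without the 2 samples farthest from the median marker level, 0.86 within F and 0.91 within M. For Hadhb r was 0.72, for Acadvl 0.65, for Acadm 0.64, for Acadl 0.62 and for Cpt2 0.57. Etfdh (0.46) and Cpt1a (0.45) were lower, Cpt1a with 0.18 in F and 0.77 in M. Cpt1c had r = -0.33. The link was not limited to astrocyte markers. By the same measure Hadha had r = 0.54 with microglial and -0.44 with striatal markers, and Hadhb -0.51 with striatal markers. Cpt2 had -0.58 with neuronal markers. With choroid plexus markers Cpt2 had 0.47, Acadvl 0.45, Hadhb -0.02 and Cpt1c -0.38. Every member was negative with cortex markers, led by Acadvl (-0.49) and Acadm (-0.48). With the proportion of reads outside genes, r was -0.59 for Hadhb, -0.50 for Hadha and -0.47 for Etfdh.

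**Figure D3:**
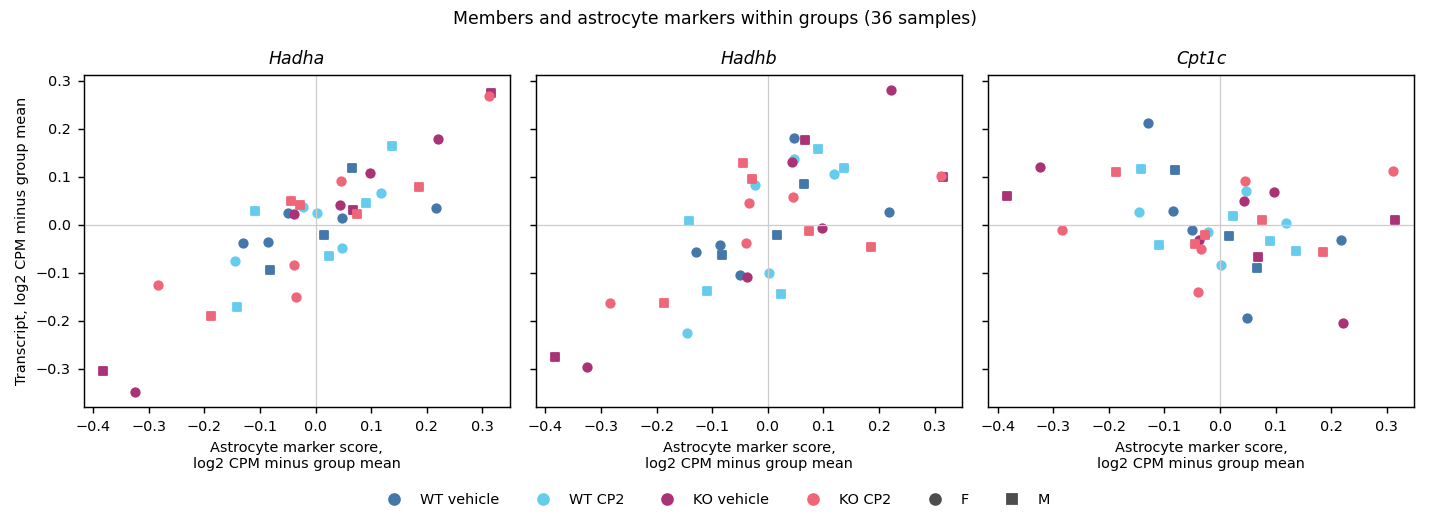
Hadha, Hadhb and Cpt1c (log2 CPM minus group mean, vertical axis) against the astrocyte marker score (mean log2 CPM of 9 markers minus group mean, horizontal axis), 1 point per sample (36), coloured by genotype and treatment, circles for F and squares for M. Hadha falls closest to a line (r = 0.88), Hadhb scatters more (r = 0.72), and Cpt1c slopes the other way (r = -0.33).

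Among 12003 genes with a mean of at least 5 CPM and a symbol, the 3 most like each member over the 36 samples were found by the same group-centred correlation. For Hadha they were Slc25a39 (0.89), Pgpep1 and Capns1, and for Hadhb Hsdl2 (0.82), Tmem47 and Phkb. Acadm was nearest to Dbi (0.86), which encodes the acyl-CoA binding protein, then Oat and Rpl10. Acadl was nearest to Glul (0.74), the glutamine synthetase of astrocytes, then Nfe2l2 and Rassf2. Acadvl was nearest to Cd63 (0.82), Pdlim5 and Pnp. Cpt2 was nearest to 1810058I24Rik (0.79) and Tnc, Cpt1a to Nudt5 (0.70) and Arpc1b, and Etfdh to Rtn4ip1 (0.69), Lypla1 and Slc46a1. Cpt1c was nearest to Stum (0.76), Ptprs and Amph, the last encoding a synaptic vesicle endocytosis protein.

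Around the 9 genes, 64 others of fatty acid metabolism were listed by function, and all 64 were tested. With vehicle, 10 of the 64 were called between KO and WT averaged over the letters, 9 lower and 1 higher, with a median log2 fold change of -0.09, where 6.67% of all genes were called and 3.8% called lower. With the proportion of reads outside genes in the model 4 of the 64 were called. Ppara, the nuclear receptor that drives fatty acid oxidation genes, was lower by a log2 fold change of -0.76 (SE 0.17, adjusted p = 0.00485). It had 1.70 ± 0.138 CPM (SD, n = 3) in KO vehicle M and 3.44 ± 0.323 CPM (SD, n = 3) in WT vehicle M, a low level, and was not called within M. Acaa1a, the peroxisomal thiolase, was lower at -0.45 (adjusted p = 0.000193), Acsbg1, an acyl-CoA synthetase of the brain, at -0.44 and Oxct1, which activates ketone bodies, at -0.38 (both adjusted p = 0.000768). Acox3, a peroxisomal acyl-CoA oxidase, was higher at 0.34 (adjusted p = 0.00147). By role, 3 of 17 genes of mitochondrial beta-oxidation and electron transfer were lower, as were 2 of 13 of uptake and activation, 2 of 11 of peroxisomal oxidation, 1 of 5 of ketone bodies and 1 of 10 PPAR regulators and targets, while 0 of 5 of the carnitine shuttle and 0 of 3 of malonyl-CoA control were called. In F, with 4.96% of all genes called, 2 rose (Acacb at 0.53, Acox3 at 0.34) and 5 fell, led by Oxct1 at -0.52, Abcd2 at -0.39, Acaa1a at -0.36 and Acsbg1 at -0.32. In M, with 0.516% of all genes called, 3 fell, Acsbg1 at -0.56, Acaa1a at -0.54 and Acsl6 at -0.33.

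With CP2, 14 of the 64 differed between KO and WT on average, 7 in each direction, where 11.6% of all genes were called. Higher in KO were Ehhadh (log2 fold change 0.42), Pecr (0.40), Acox3 (0.39) and Fabp5 (0.38), the first 3 of them peroxisomal and the last a fatty acid binding protein. Among the lower genes were Acaa1a (-0.28), Ppard (-0.28) and Slc27a1 (-0.26). In F the 1 call was Acox3 (0.34), with 2% of all genes called. In M, where 9.99% of all genes were called and 4.75% called higher, 11 were higher, among them Ucp2 (0.68), Hadh (0.53) and Fabp5 (0.53), and 4 were lower, Ppargc1b (-0.40), Slc27a1 (-0.31), Acaa1a (-0.26) and Crat (-0.20). Acox3 and Acaa1a thus differed in the same direction in the vehicle and CP2 comparisons on average, which share no samples.

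For CP2 in KO, 9 of the 64 were higher on average and 0 lower, where 3.91% of all genes were called and 2.08% called higher. Of the 9, 5 belonged to mitochondrial beta-oxidation and electron transfer (17 listed). They were led by Decr1, the dienoyl-CoA reductase for unsaturated chains (0.45, SE 0.09, adjusted p = 0.0047), Hadh, the short-chain hydroxyacyl-CoA dehydrogenase (0.33), Eci1 (0.32) and Etfa (0.30), a subunit of the flavoprotein that ETFDH oxidises. In M, where 5.1% of all genes were called and 2.36% called higher, 10 were higher, led by Decr1 (0.73), Etfb (0.70), Eci1 (0.53) and Hadh (0.51). Decr1 had 11.6 ± 2.58 CPM (SD, n = 3) in KO vehicle M and 19.2 ± 2.83 CPM (SD, n = 5) in KO CP2 M. In F edgeR called 0 (9 at an unadjusted p under 0.05), the smallest p-values being those of Abcd2 (0.34, adjusted p = 0.145) and Oxct1 (0.29, adjusted p = 0.149). In WT edgeR called 0 of the 64 on average, Crot (0.19) having the smallest unadjusted p. The difference between genotypes was called for Hadh on average (0.47, SE 0.10, adjusted p = 0.0217) and for Hadh (0.73, adjusted p = 0.0081) and Decr1 (0.85, adjusted p = 0.013) in M. With the astrocyte markers or the proportion of reads outside genes in the model, 0 of the 64 were called for CP2 in KO on average.

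The letters differed for 12 of the 64, 11 higher in F, among them Dbi (0.36), Eci1 (0.28) and Etfb (0.27), and 1 lower, Acaa1a (-0.15), where 10.3% of all genes were called.

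**Figure D4:**
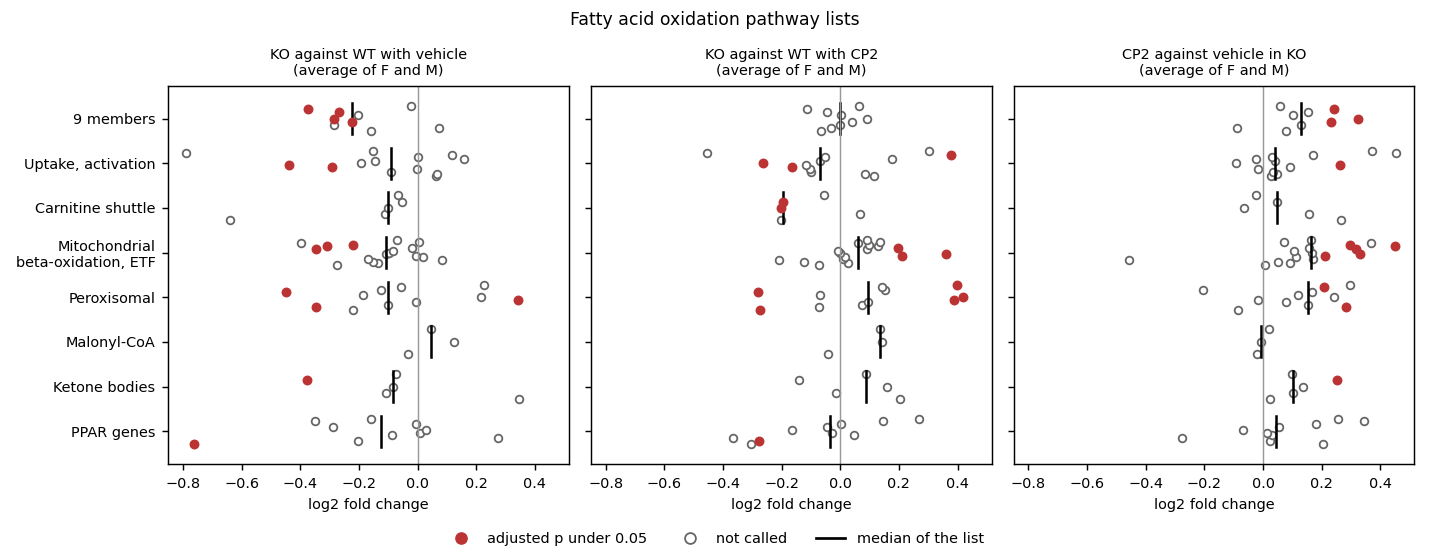
Log2 fold changes (horizontal axis, average of F and M) of the 9 members and of the 64 other genes by role, for KO against WT with vehicle, KO against WT with CP2 and CP2 against vehicle in KO. Each point is a gene, red where its adjusted p was under 0.05, and black bars are list medians. With vehicle the called genes lie mostly below 0, down to Ppara at -0.76, and for CP2 in KO all called genes shown lie above 0, up to Decr1 at 0.45.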

How the data were processed

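PolyA-selected RNA was sequenced from 36 samples. The authors deposited raw counts per Ensembl gene, made with STAR and HTSeq on build GRCm39 per the submitters' processing notes; versions, annotation release and strandedness are not given in the sources used here. The 5 summary rows were left out. Symbols came from a GENCODE M21 table (91.4% of identifiers matched). That build differs from the files', so coordinates are given for RefSeq promoters alone, in their own build.

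Counts were tested with edgeR 4.0.16 in R 4.3.3 (quasi-likelihood test, TMM, filterByExpr, robust fit, a coefficient for each of 8 groups) in 20 contrasts. P-values were adjusted by Benjamini-Hochberg over all tested genes of a contrast, with calls at an adjusted p under 0.05. SE is the estimate over the root of its F statistic. The same code was tested on simulated counts. Levels are CPM, and log2 CPM used a prior count of 2. Within groups, 66 pairs of samples had a mean chi-square per gene of 13.5 to 143, so none agreed within sampling noise. Averages weight F and M equally.

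The members and lists were chosen with earlier results of these data known. The 9 members are always named. Of the 64 other genes, up to 4 called each way with the largest change per contrast are named, or the 2 with the smallest p where none was called. The 3 genes most like a member are those with the highest group-centred correlation. Some genes that these rules name are not reported here. Alternatives were DESeq2 1.42.0, RLE size factors, plain library sizes, no filter, covariates, fewer groups or samples, and leaving out each sample.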

Additional observations from a re-analysis of the deposited data

Results flagged for a closer look

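Among the 9 genes, 54 groups of 5 samples were screened for a sample far from the rest, and 3 were found, where chance gives about 1 in 20. Cpt2 in KO CP2 M was 5.88 CPM in sample L298, with the others between 9.22 and 10.2 CPM. Hadha in the same sample was 68.6 CPM, with the others between 79.5 and 82.7 CPM. Sample L298 was also the lowest of its group in summed choroid plexus markers, at 196 CPM against 1603 to 2777 CPM. Its red cell markers summed to 23.4 CPM, against 99.1 to 193 CPM in the others. The part of these tissues in the 2 values was not tested. Etfdh in KO CP2 F was 31.6 CPM in sample L234, with the others between 23.9 and 25.9 CPM.

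No member showed a called difference between genotypes or letters in its response, but some of the other pathway genes did (log2 scale, edgeR's quasi-likelihood test with Benjamini-Hochberg adjustment). The CP2 effect was higher in KO than in WT for Hadh, by 0.47 on average (adjusted p = 0.0217) and by 0.73 in M (adjusted p = 0.0081), and for Decr1 by 0.85 in M (adjusted p = 0.013). The effect of genotype with CP2 was lower in F than in M for Acaa2 (-0.58, adjusted p = 0.0497). The effect of CP2 in KO was lower in F than in M for Acaa2 (-0.75, adjusted p = 0.0284) and Acacb (-0.99, adjusted p = 0.0473).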

How the results depend on the processing

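No paired analysis was possible because the sample numbers in the titles are unique and no number is shared between groups. No estimate that was called changed sign under any alternative. Counts of members called are given against the counts of the report, and the cause of each change was not tested.

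With the proportion of reads outside genes in the model, KO against WT with vehicle fell from 4 to 0 members (F 1 to 0, M 1 to 0), KO against WT with CP2 went from 0 to 1 on average, 1 to 0 in F and 2 to 0 in M, CP2 in KO from 3 to 0 (M 3 to 0) and F against M from 1 to 0; of the 64 other genes 4 in place of 10 were called for KO against WT with vehicle, 0 in place of 9 for CP2 in KO and 0 in place of 1 for the interaction. With the astrocyte marker score in the model, an alternative chosen after seeing the data, vehicle F went from 1 to 3, vehicle M from 1 to 2, CP2 average from 0 to 2, CP2 F from 1 to 2, CP2 M from 2 to 1, CP2 in KO from 3 to 0 on average and in M, F against M from 1 to 2, and the 64 genes from 9 to 0 for CP2 in KO and 1 to 0 for the interaction. With the hippocampal marker score vehicle F had 0, F against M 2 and the M interaction 1.

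RLE size factors and no filter on low counts each gave 0 for vehicle F, CP2 F and CP2 M. Without ENSMUSG00000119584, which took up to 6.01% of a sample's counts, CP2 F had 0, F against M 2 and the M interaction 1. DESeq2 called 1 for the average interaction, 3 for the M interaction, 2 for the F minus M difference in KO against WT with CP2, and 4 of the 64 for the interaction. With only the groups of a contrast, vehicle F, CP2 F and CP2 in KO had 0, the M interaction 2, the F minus M difference with CP2 1, and the 64 genes 2 for CP2 in KO. Without KO CP2 M samples L266 and L291, CP2 in KO had 1 on average and in M, CP2 M had 0, and the 64 genes had 5 for CP2 in KO and 9 for KO against WT with CP2. Plain library sizes moved no member's group mean by more than 1 SD.

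Leaving out each sample in turn gave 1 to 4 members for KO against WT with vehicle (F 0 to 3, M 0 to 1), 0 to 1 for CP2 F and 0 to 2 for CP2 M, 0 to 3 for CP2 in KO (M 0 to 4), 0 to 1 for the average interaction and 0 to 3 in M, 0 to 2 for the F minus M difference with CP2, and 1 to 3 for F against M. For the 64 genes it gave 7 to 12 for KO against WT with vehicle, 10 to 16 with CP2, 2 to 11 for CP2 in KO and 0 to 4 for the interaction. The 3 samples in each M vehicle group limit the precision there, and intervals cover the spread between samples.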
